A study of Mus musculus with 53 samples.

Results

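Of the 23847 loci in the expression tables of IL-4-treated mouse macrophages, 362 carried a Zfp symbol, the mouse name for a zinc finger protein gene. The 190 Zfp genes described here were chosen by their level, a mean of at least 2 FPKM over all 53 samples. FPKM scales a gene's fragments by transcript length and by sequencing depth, so levels are comparable between genes. All 190 had at least 1 FPKM in at least 1 sample and all 190 entered the tests. Zfp3 (2.007 FPKM), Zfp369 (2.04 FPKM) and Zfp119a (2.082 FPKM) lay just inside the limit, and Zfp213 (1.93 FPKM) and Zfp273 (1.929 FPKM) just outside.

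RNA-seq was performed on bone marrow-derived macrophages (BMDMs) of WT and Stat6-/- (labelled Stat6KO) mice aged 8 to 12 weeks, and the study asked which genes IL-4 activates or represses through STAT6. Marrow cells were cultured for 6 days with L929 supernatant, a source of M-CSF, in every group. They then received IL-4 at 20 ng/ml for 1, 3, 6 or 24 h or served as a control of the same time, and a further control was taken at 0 h. The knockout was carried by the whole animal, on the C57BL/6 background. Each Stat6-/- group held 2 samples and each WT group held 4, except WT with IL-4 for 24 h, which held 3 (its replicate 1 was not analysed here).

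Stat6 itself was at 58.69 to 90.62 FPKM in the 35 WT samples and at 14.26 to 24.02 FPKM in the 18 Stat6-/- samples, with no overlap. Of the macrophage markers, Csf1r (609.776 FPKM or more), Emr1, Cd68 and Itgam were abundant in all 53 samples, Fcgr1 ranged from 15.992 to 552.981 FPKM and Mertk from 4.598 to 28.436 FPKM, and the markers of T cells, B cells and fibroblasts were below 1 FPKM in each of them. Of the neutrophil markers, S100a8 (80.696 to 477.726 FPKM) and S100a9 (103.167 to 436.69 FPKM) were high throughout. Relative depth varied from 0.705 to 1.555 of the median sample and had a median of 1.0 in WT and 1.004 in Stat6-/-. In bulk samples like these, fewer cells of a type and less RNA per cell cannot be told apart.

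Most Zfp genes encode proteins with C2H2 fingers, short loops held by zinc that read DNA sequence. A large subgroup carries a KRAB domain, which recruits the corepressor TRIM28 and silences DNA, retroelements above all. The Zfp36 family is different: its CCCH fingers bind AU-rich elements in mRNA and bring in the CCR4-NOT deadenylase, so that mRNAs of cytokines and early response genes decay, and Zfp36 itself (tristetraprolin) is known for limiting Tnf in macrophages.

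By protein sequence, 113 of the 190 genes encoded C2H2 fingers without a recognised KRAB domain, 64 a KRAB domain, 3 CCCH fingers and 10 none of these. The median level was 4.65 FPKM, and 102 genes lay between 2 and 5 FPKM. The 64 genes with a recognised KRAB domain were low, with a median of 3.87 FPKM and none above 14.33. The C2H2 genes without a recognised one had a median of 5.52 FPKM. The sequence pattern can miss KRAB domains, and a wider one recognised 71 genes. The 3 CCCH genes were the most abundant of all. Zfp36 averaged 135.5 FPKM, Zfp36l2 87.6 FPKM and Zfp36l1 72.9 FPKM, followed by Zfp207 (56.2 FPKM), a protein of the mitotic spindle, and Zfp710 (40.3 FPKM).

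IL-4 moved many Zfp genes in WT BMDMs, first more often up and by 24 h mostly down, and few by 2-fold. At an adjusted p below 0.05 (limma, Benjamini-Hochberg), 29 of 190 were higher and 7 lower at 1 h, against 5.67% and 3.72% of all 11146 loci tested. The median change of the Zfp genes at 1 h was 0.07 on the log2(FPKM + 1) scale and that of all loci was -0.02. At 3 h, 34 were higher and 18 lower, where 16.4% and 12.5% of all loci were. At 6 h, 25 were higher and 29 lower, where 22.0% and 19.2% of all loci were. At 24 h, 15 were higher and 93 lower, against 23.4% and 31.6% of all loci. The median at 24 h was -0.23 for the Zfp genes and -0.07 for all loci, and 149 of the 190 had a value below 0.

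**Figure D1:**
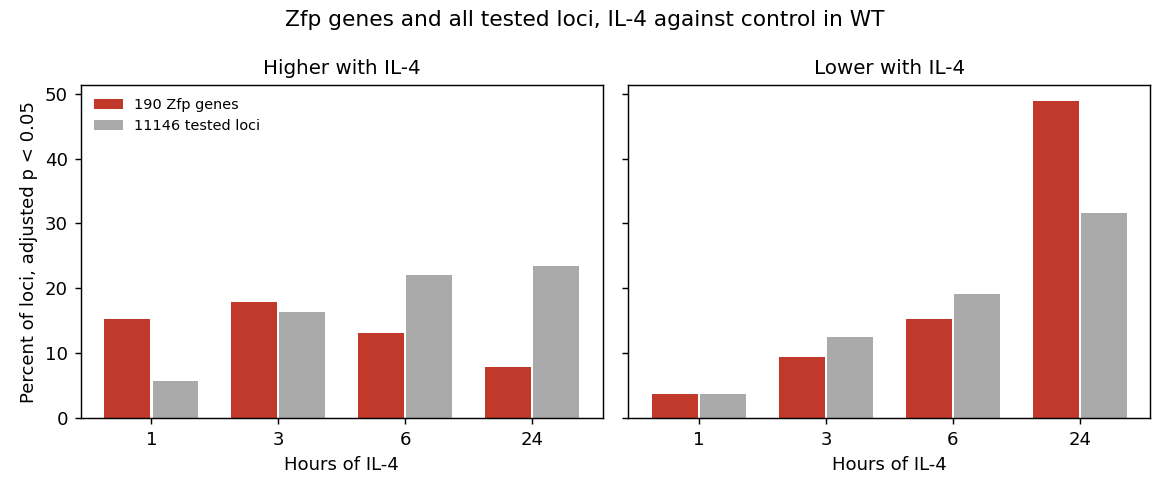
Percent of the 190 Zfp genes (red) and of the 11146 loci tested (grey) with an adjusted p below 0.05 for IL-4 against control in WT BMDMs, by hours of IL-4, higher on the left and lower on the right. The Zfp bar is above the grey one for higher genes at 1 h (15.3% against 5.67%) and for lower genes at 24 h (48.9% against 31.6%).

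The split depended on scaling. With quantile normalization the higher and lower Zfp genes were 27 and 12 at 1 h, 26 and 26 at 3 h, and 22 and 60 at 24 h. The 60 lower genes at 24 h were then 31.6% of the Zfp genes, against 25.7% of all loci, a smaller gap than without it. The 27 higher genes at 1 h were 14.2%, against 5.28% of all loci. Single libraries also mattered. Without WT replicate 2, 18 Zfp genes were higher at 1 h, and without WT replicate 3, 21 were higher at 3 h. The 7 lower genes at 1 h became 4, 2 and 2 without WT replicates 1, 3 and 4. The WT controls of 1 h had themselves a Zfp median of -0.11 against the 0 h controls, where all loci had -0.02.

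Over the time course, 141 Zfp genes (74.2%) passed the test at 1 or more time points, where 70.9% of all loci did, and 49 at none. Of the 190, 39 were only higher (20.5%, against 30.2% of all loci), 84 only lower (44.2% against 35.1%) and 18 higher at one time and lower at another (9.47% against 5.55%). A decrease that passed at 24 h, with no pass at any other time, was found in 53 genes (27.9% against 15.9%). A further 13 genes were higher at 1 h and lower at 24 h (6.84% against 1.37%). All 4 time points were passed by 10 genes (5.26% against 3.97%).

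Changes of at least 2-fold (an absolute change of 1 or more in log2(FPKM + 1) at an adjusted p below 0.05) were few. This scale understates changes of low genes. They were found in 4 Zfp genes at 1 h, when 1.49% of all loci were called, in 3 at 3 h (3.88% of all loci), in 4 at 6 h (5.54%) and in 3 at 24 h (8.5%). These calls fell on 9 genes, described next, with the Zfp36 family first.

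Zfp36l2, the family member that is known for its part in lymphocyte development and in quiescence, had the largest early decrease of all Zfp genes. It lies on chromosome 17 (84183928 to 84187947, minus strand, GRCm38). The WT samples were at 22.42, 22.35, 22.77 and 23.17 FPKM with IL-4 for 1 h and at 101.2, 81.24, 105.8 and 104.6 FPKM in the controls. All IL-4 samples were low and close together, far below every control. The change was -2.06 ± 0.09 (log2, SE, adjusted p = 5.98e-21, limma). Zfp36l2 then recovered in part, to a mean of 52.6 ± 0.8 FPKM at 3 h (SD, n = 4), 73.9 ± 3.65 at 6 h (n = 4) and 74.9 ± 2.14 at 24 h (n = 3). It was still lower than the control at 24 h (-0.44 ± 0.09, adjusted p = 0.00014, limma), where the controls were at 98.0, 108.2, 106.4 and 96.29 FPKM. In Stat6-/- BMDMs the gene was at 95.78 and 85.98 FPKM with IL-4 for 1 h and at 100.3 and 101.7 FPKM without. The response differed between genotypes by -1.91 ± 0.15 at 1 h (adjusted p = 4.89e-12, limma) and by -1.0 ± 0.15 at 3 h (adjusted p = 3.55e-06).

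Zfp36l1, its paralog on chromosome 12 (80107760 to 80113013, minus strand), went the other way. With IL-4 for 1 h it was at 86.46, 86.32, 89.34 and 74.44 FPKM in WT, and in the controls at 42.01, 34.02, 47.04 and 45.24 FPKM. At 6 h the IL-4 samples had reached 154.4, 166.7, 144.6 and 133.0 FPKM and the controls 67.75, 56.5, 56.56 and 58.62 FPKM. The groups did not overlap at either time. The increase was 0.99 ± 0.19 at 1 h, 1.36 ± 0.19 at 3 h and 1.31 ± 0.19 at 6 h (adjusted p = 0.000207, 3.15e-07 and 4.77e-07, limma). By 24 h it had turned into a decrease of -0.84 ± 0.21 (adjusted p = 0.000824), with 39.05, 29.94 and 29.31 FPKM under IL-4 against 61.37, 68.41, 57.91 and 49.18 FPKM in the controls. The genotypes differed in this response at 3 h (1.4 ± 0.33), 6 h (1.43 ± 0.33) and 24 h (-0.94 ± 0.34), with adjusted p = 0.00254, 0.00162 and 0.0358 (limma). The reads carried no strand, and 55.9% of the exonic bases of Zfp36l1 overlap Gm26669, a gene on the opposite strand, so both cannot be told apart there.

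Zfp36 itself, on chromosome 7 (28376784 to 28379228, minus strand), moved late and less. WT samples with IL-4 for 6 h were at 179.1, 213.1, 216.7 and 200.6 FPKM and their controls at 127.8, 143.6, 142.0 and 124.5 FPKM. Every IL-4 sample was above every control, by 0.59 ± 0.11 on the log2 scale (adjusted p = 5.73e-05, limma), and the response differed from that of Stat6-/- by 0.58 ± 0.2 (adjusted p = 0.0386). At 24 h the means were 131.9 ± 6.12 FPKM with IL-4 (n = 3) and 133.6 ± 14.5 FPKM without (n = 4), a difference (-0.01 ± 0.12) smaller than the spread between replicates, whose sign turned with median-ratio scaling (0.055). In the untreated WT cells Zfp36 was lower at 0 h (94.5 ± 20.5 FPKM, SD, n = 4) than at 24 h, by 0.52 ± 0.11 (adjusted p = 0.00141, limma). Without WT replicate 1, the lowest at 0 h, that difference was 0.35 and did not pass.

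**Figure D2:**
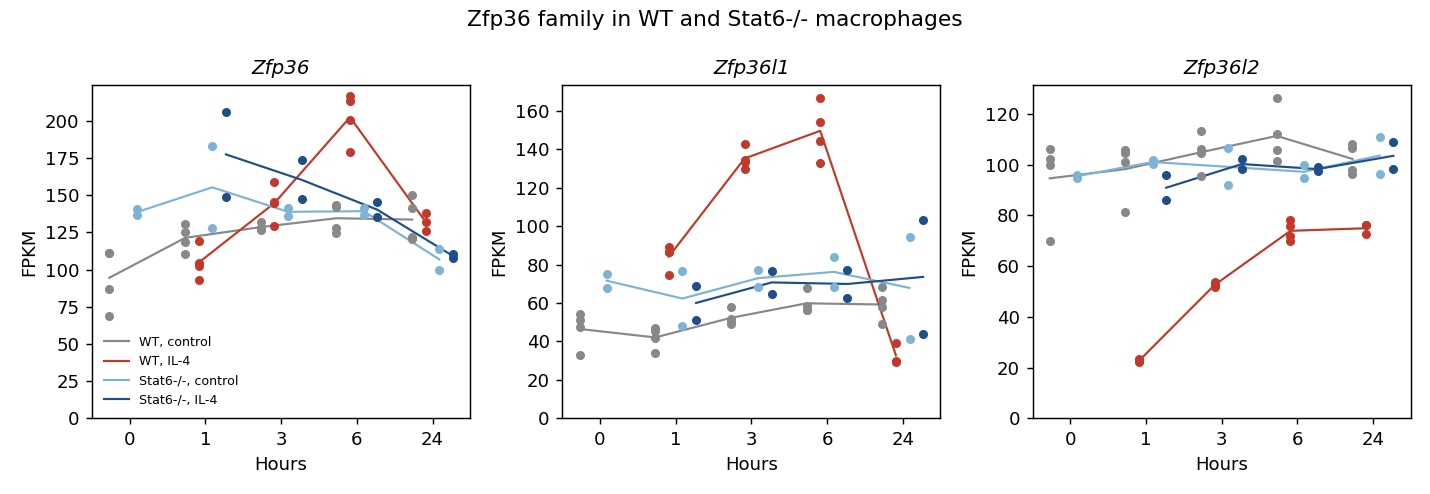
FPKM of the 3 CCCH genes against hours, with 1 point per sample and lines through group means, for WT control (grey), WT with IL-4 (red), Stat6-/- control (light blue) and Stat6-/- with IL-4 (dark blue). Zfp36l2 with IL-4 in WT starts near 22 FPKM at 1 h, Zfp36l1 peaks at 6 h and ends below its controls, and Zfp36 peaks at 6 h.

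Few genes of the machinery that this family recruits passed the test for IL-4 in WT. Among 15 deadenylation and decapping genes, 0 passed at 1 h and 0 at 3 h by limma (9.39% and 28.9% of all loci). At both times 0 had an unadjusted p below 0.05 and 0 passed Tukey's adjustment. By limma 1 passed at 6 h and 2 at 24 h (41.2% and 55.0% of all loci). An unadjusted p below 0.05 was found for 2 at 6 h and 5 at 24 h. Rqcd1, a CCR4-NOT subunit, was higher at 6 h (0.16) and at 24 h (0.19), and Cnot8, a deadenylase, was lower at 24 h (-0.3). Of 14 measured mRNAs known as targets of the family, 4 were higher and 4 lower at 1 h (5.67% and 3.72% of all loci). At 3 h, 6 were higher and 7 lower (16.4% and 12.5% of all loci). Tnf went from 18.69 to 21.31 FPKM in the WT controls of 1 h to 3.32 to 4.485 FPKM with IL-4 (-2.09 ± 0.13, adjusted p = 5.02e-16, limma). Ier3, an early response gene, rose by 3.69 ± 0.16 in the same samples (adjusted p = 2.97e-20). The targets moved in both directions at 1 and 3 h, when Zfp36l2 was lower and Zfp36l1 higher than in the controls. The part of the family in these changes was not tested. Of 4 kinases and phosphatases known to act on tristetraprolin or on p38, 2 were lower at 1 h (3.72% of all loci). The lower ones numbered 2 at 3 h (12.5% of all loci), 3 at 6 h (19.2%) and 2 at 24 h (31.6%). Dusp1, the phosphatase that restrains p38, fell by 2.26 on the log2 scale at 1 h (adjusted p = 1.59e-06, limma). Mapkapk2, the kinase downstream of p38 that inactivates tristetraprolin, was lower at all 4 time points, from -0.29 at 1 h to -0.8 at 24 h.

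Outside the family, Zfp609 had the largest increase of any Zfp gene. It encodes a protein that works with the cohesin loader Nipbl in neural progenitors. Its WT samples were at 11.23, 12.23, 10.36 and 11.31 FPKM with IL-4 for 3 h and at 2.079, 2.078, 1.984 and 2.232 FPKM without. No sample of one group came near the other, and the change was 1.99 ± 0.07 (adjusted p = 5.82e-24, limma). Smaller increases were found after 1 h (0.59), 6 h (1.52) and 24 h (0.73). With IL-4 for 3 h the Stat6-/- samples were at 2.338 and 1.875 FPKM, and the response differed between genotypes by 2.11 ± 0.12 (adjusted p = 2.55e-16).

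Zfp703, a corepressor of the NET family that is amplified in breast cancer, was raised to a plateau. WT values with IL-4 were 33.19, 31.16, 39.73 and 31.75 FPKM at 1 h, and the controls were at 14.04, 13.17, 15.64 and 13.49 FPKM. Means stayed at 39.9 ± 2.69 FPKM at 3 h and 39.3 ± 2.43 FPKM at 6 h (SD, n = 4) and came down to 20.7 ± 0.38 FPKM at 24 h (n = 3). The increases were 1.21, 1.26, 1.16 and 0.34 in time order, each with an SE of 0.09 (adjusted p = 4.68e-14, 4.53e-15, 3.78e-14 and 0.00221, limma), and the genotypes differed at all 4 times (0.95, 1.2, 1.23 and 0.42, adjusted p = 2.3e-05, 1.02e-07, 4.88e-08 and 0.0375).

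Zfp654 and Zfp874a had their highest values at 1 h. Zfp654 was at 7.854, 8.005, 7.402 and 8.536 FPKM with IL-4 against 2.603, 1.896, 3.106 and 2.937 FPKM, a change of 1.31 ± 0.1 (adjusted p = 4.88e-13, limma). At 24 h it no longer passed (3.6 ± 0.12 against 3.94 ± 0.19 FPKM). Zfp874a was at 11.72, 11.99, 8.844 and 9.068 FPKM with IL-4 for 1 h against 3.525, 3.11, 3.65 and 3.345 FPKM (1.36 ± 0.12, adjusted p = 2.28e-11). IL-4 and control samples did not overlap for either gene. Stat6-/- samples with IL-4 for 1 h were at 3.34 and 2.233 FPKM for Zfp654 and at 3.373 and 2.927 FPKM for Zfp874a, all far below the WT samples with IL-4. The difference between genotypes was 1.45 ± 0.18 for Zfp654 and 1.51 ± 0.21 for Zfp874a (adjusted p = 1.96e-07 and 2.8e-06).

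Zfp821 was the gene with the deepest late loss, and its level fell further at each time. WT samples with IL-4 for 24 h were at 2.037, 2.229 and 2.196 FPKM and the controls at 9.476, 7.192, 8.97 and 7.695 FPKM, with a wide gap between the groups. The change was -0.54, -0.87, -1.02 and -1.56 in time order, with an SE of 0.16 or 0.17 (adjusted p = 0.0172, 2.63e-05, 1.17e-06 and 7.2e-10, limma). The value at 1 h did not pass when any WT replicate was left out (-0.6 to -0.45). Its 2 Stat6-/- samples of 24 h lay at 6.378 and 9.417 FPKM with IL-4 and at 5.25 and 9.552 FPKM without, and the response differed between genotypes by -1.67 ± 0.28 (adjusted p = 1.73e-05).

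Zfp467, which is known for favouring adipocyte over osteoblast fate, and Zfp263 were the other 2-fold decreases at 24 h. Zfp467 was at 7.684, 6.662 and 6.948 FPKM with IL-4 and at 20.91, 16.82, 17.26 and 16.05 FPKM in the controls (-1.21 ± 0.13, adjusted p = 7.32e-10, limma). Zfp263 was first higher, at 48.5 ± 2.91 against 30.6 ± 1.05 FPKM at 1 h (0.65 ± 0.13, adjusted p = 0.000312, n = 4 each, limma). By 24 h it was at 16.88, 16.39 and 16.4 FPKM with IL-4 against 38.37, 37.6, 36.38 and 28.53 FPKM (-1.04 ± 0.14, adjusted p = 7.87e-08). The groups did not overlap in either gene at 24 h. The response differed from that of Stat6-/- by -1.14 ± 0.22 for Zfp467 and -1.07 ± 0.23 for Zfp263 (adjusted p = 0.000103 and 0.000531).

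**Figure D3:**
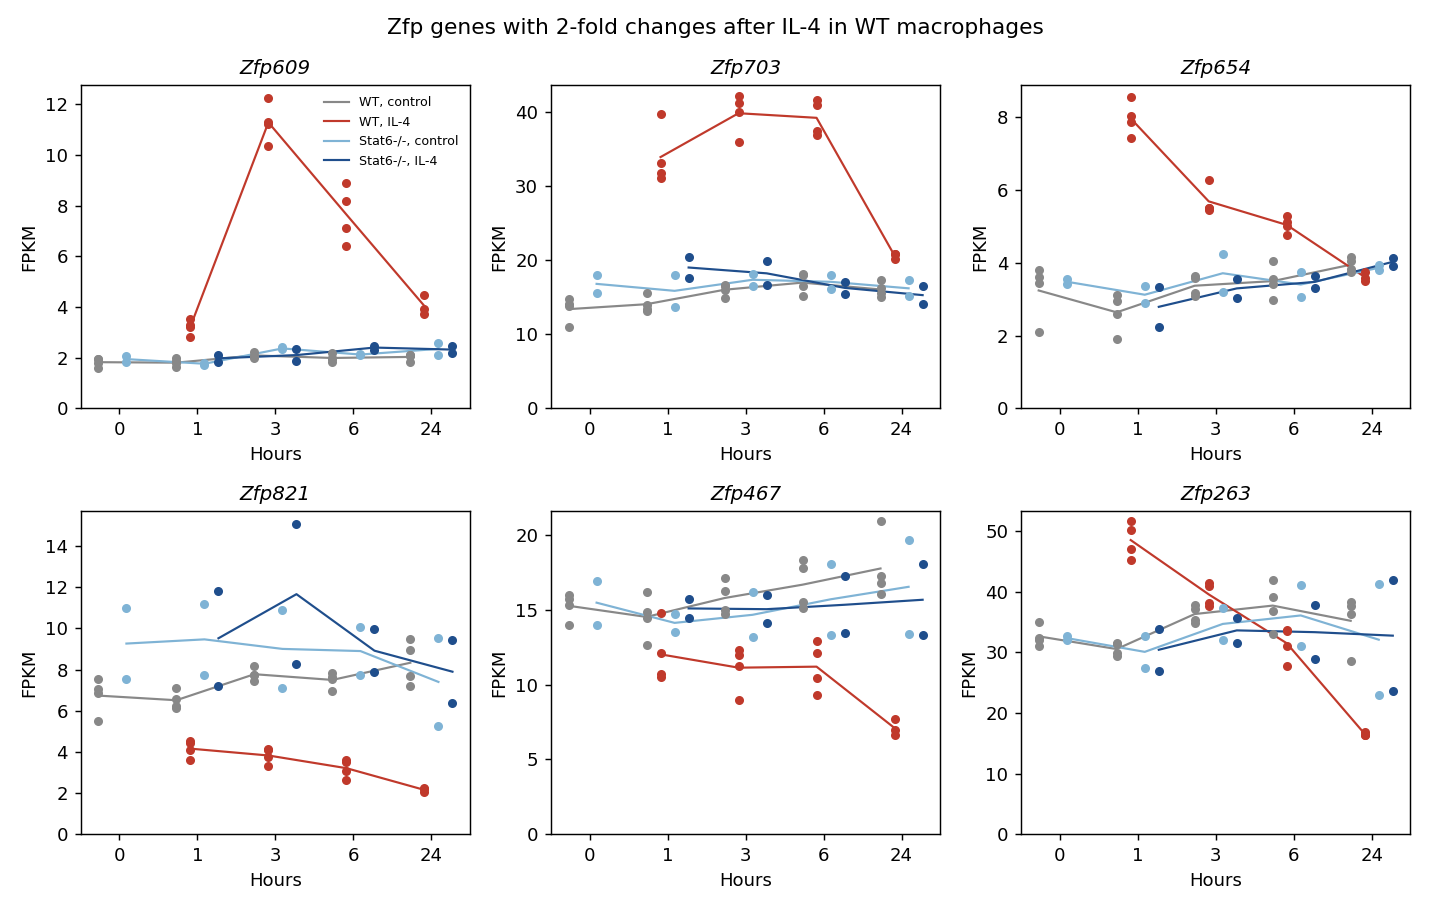
FPKM against hours for 6 Zfp genes with a 2-fold change in WT, with 1 point per sample and lines through group means in the colours of the genotype and treatment groups. Zfp609, Zfp703 and Zfp654 rise with IL-4 in WT and come down by 24 h, while Zfp821, Zfp467 and Zfp263 end below all other groups.

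Changes that stayed under 2-fold on the log2(FPKM + 1) scale, without overlap between IL-4 and control samples, were led by Zfp275 and Zfp395. Zfp275 was at 2.572, 2.839, 2.738 and 2.716 FPKM with IL-4 for 3 h against 6.576, 6.717, 6.232 and 5.204 FPKM (-0.95 ± 0.09, adjusted p = 3.65e-11, limma). Zfp395 was at 7.829, 7.009, 8.434 and 8.566 FPKM against 14.97, 14.74, 16.05 and 16.07 FPKM at the same time (-0.88 ± 0.14, adjusted p = 2.77e-06), and it stayed lower at 24 h (-0.62 ± 0.15). The abundant Zfp710 was lower at 1 h (27.0 ± 2.04 against 34.5 ± 1.15 FPKM, SD, n = 4) and at 3 h (37.1 ± 2.35 against 47.6 ± 1.71 FPKM), by -0.35 both times (adjusted p = 0.0207 and 0.0065, limma). Zfp207 passed at no time point, with changes between 0.06 and 0.24. The highest increase at 24 h was that of Zfp101, a KRAB gene (0.78 ± 0.16, adjusted p = 8.11e-05), followed by Zfp609 (0.73) and Zfp142 (0.59 ± 0.08, adjusted p = 3.03e-07). Zfp101 was at 5.722, 4.785 and 5.459 FPKM with IL-4 and at 2.246, 3.42, 2.729 and 2.454 FPKM without.

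Zfp genes often lie side by side, and 8 runs of at least 5 of them had no more than 500 kb between neighbouring starts. One run stood out at 1 h of IL-4 (it was singled out after the values were seen, so no test is given). It spans 9 genes from Zfp455 to Zfp738 on chromosome 13 (67194506 to 67683512, GRCm38), 8 of them of the KRAB class. With IL-4 for 1 h in WT, 7 of the 9 passed the test as higher and all 9 had values above 0, with a median of 0.47, where 5.67% of all loci had passed as higher. The counts were 4 of 9 at 3 h and 2 of 9 at 6 h, and by 24 h all 9 values were below 0 and 6 had passed as lower, where 31.6% of all loci had. The other 7 runs held 0 to 2 genes that were higher at 1 h. At 24 h other runs held lower genes as well, 5 of 6 from Zfp282 to Zfp467 on chromosome 6, 6 of 8 from Zfp553 to Zfp646 on chromosome 7 and 7 of 12 from Zfp160 to Zfp946 on chromosome 17. In Stat6-/- BMDMs the 9 values at 1 h ran from -0.15 to 0.14, with a median of -0.03. The WT controls of 1 h had a lower mean than those of 0 h for each of the 9 genes. Zfp874a was at 3.408 against 4.314 FPKM (10.405 with IL-4 for 1 h). Zfp738 was at 1.88 against 2.326 FPKM (2.525 with IL-4 for 1 h). The part of this dip in the values at 1 h was not tested.

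Single genes of the run showed the pattern without overlap of groups. Zfp87 was at 6.782 to 7.965 FPKM with IL-4 for 1 h and at 4.735 to 5.106 FPKM in the controls (0.53 ± 0.06, adjusted p = 4.71e-09, limma). Zfp429 was at 7.462 to 8.759 against 4.869 to 5.393 FPKM (0.6 ± 0.12, adjusted p = 0.00045). The tested difference between genotypes passed for Zfp874a, Zfp87 (0.51 ± 0.1, adjusted p = 0.00109) and Zfp58 (0.56 ± 0.15, adjusted p = 0.0306) and missed for the other 6. The other neighbours in the stretch with at least 2 FPKM were A530054K11Rik (0.31 ± 0.12, adjusted p = 0.118) and AA987161 (0.34 ± 0.11, adjusted p = 0.0391). Genes of the run share sequence with other genes, inside or outside the run. Of the 50-base words of Zfp58, 46.6% occur in other genes, among them Gm26965. For Zfp429 the share is 25.0%, with Rsl1 among the others, and for Zfp874a 7.8%, with Zfp874b among them. Reads may thus have been split between copies.

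**Figure D4:**
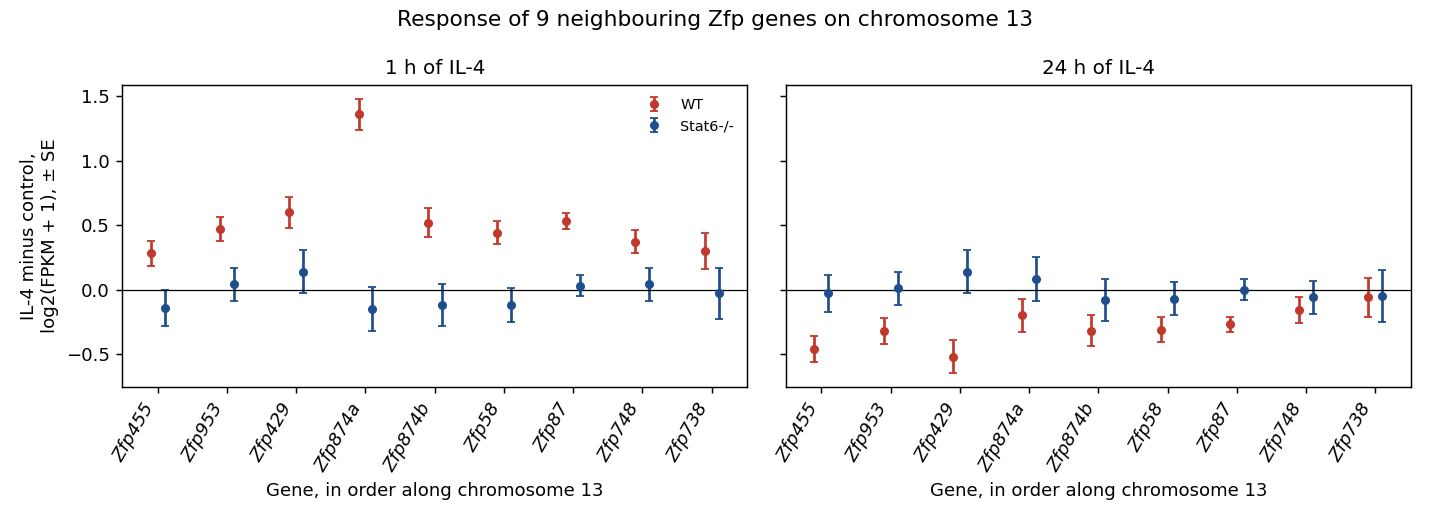
IL-4 minus control in log2(FPKM + 1), with SE bars from limma, for the 9 neighbouring Zfp genes of chromosome 13 in their order along it, at 1 h (left) and 24 h (right), in WT (red) and Stat6-/- (blue). All WT values are above 0 at 1 h, up to 1.36 for Zfp874a, and below 0 at 24 h.

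The promoters of these genes are shown because they resemble each other. RefSeq start sites (GRCm38.p6) were available for 8 of the 9, all but Zfp87 (0.53 at 1 h), and only these 8 were ranked for printing. The 120 bases before the start are printed 5′ to 3′ for the 4 genes with the highest and the 2 with the lowest change at 1 h, with capitals for the letters TGGGANNTGTAGTC, the stretch of 14 bases most alike in all 8, with N for a base that differs.
Zfp874a (chr13:67451625-67451744, minus strand): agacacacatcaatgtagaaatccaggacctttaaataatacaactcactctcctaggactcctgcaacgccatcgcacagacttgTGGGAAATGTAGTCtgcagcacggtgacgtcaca
Zfp429 (chr13:67399768-67399887, minus strand): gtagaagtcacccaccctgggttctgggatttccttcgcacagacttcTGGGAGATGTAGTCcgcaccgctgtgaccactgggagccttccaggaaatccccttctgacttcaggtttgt
Zfp874b (chr13:67484254-67484373, minus strand): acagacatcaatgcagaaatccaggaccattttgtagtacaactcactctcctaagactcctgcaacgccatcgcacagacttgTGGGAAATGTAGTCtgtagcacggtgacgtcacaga
Zfp953 (chr13:67360573-67360692, minus strand): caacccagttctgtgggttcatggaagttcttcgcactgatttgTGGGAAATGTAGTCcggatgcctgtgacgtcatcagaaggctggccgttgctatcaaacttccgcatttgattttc
Zfp738 (chr13:67683513-67683632, minus strand): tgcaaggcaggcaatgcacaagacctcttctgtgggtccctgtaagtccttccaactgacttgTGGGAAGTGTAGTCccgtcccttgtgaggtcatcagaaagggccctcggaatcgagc
Zfp455 (chr13:67194386-67194505, plus strand): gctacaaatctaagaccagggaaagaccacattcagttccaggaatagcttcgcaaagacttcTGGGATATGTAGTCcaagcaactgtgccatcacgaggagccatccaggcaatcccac

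The pattern was drawn from these 8 promoters, so all 8 held it by choice, each once, 27 to 76 bases before the start. It was found, on either strand, in 0.658% of all 32851 RefSeq windows of 250 bases before a start and in 6.77% of the 192 such windows of Zfp genes. The latter share includes the 8 promoters it was drawn from, so it is no test of enrichment. Outside the run it occurred in 4 Zfp genes, whose median change at 1 h was 0.0. Zfp874a and Zfp874b have an identical stretch of 45 bases there, and both, like Zfp953, also hold TGACGTCA, the palindromic cAMP response element, which was present in 1.55% of all windows and 4.69% of those of Zfp genes. The 6 Zfp genes outside the run that hold it had a median of -0.04 at 1 h. The changes at 1 h were 1.36 ± 0.12 for Zfp874a and 0.52 ± 0.11 for Zfp874b, and their difference was not tested.

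The decrease at 24 h was shared by both large protein classes. Among the 64 KRAB genes, 41 were lower and 1 (Zfp101) higher, with a median of -0.27. Among the 113 C2H2 genes without a recognised KRAB domain, 46 were lower and 10 higher, with a median of -0.2. Of all loci, 31.6% were lower and 23.4% higher, with a median of -0.07. Of the Zfp genes between 2 and 5 FPKM, 51.0% were lower, against 36.4% of all 1868 loci in that range. The log2(FPKM + 1) scale understates changes of low genes such as these. On it the largest decrease among the 64 genes with a recognised KRAB domain was that of Zfp963 (-0.66 ± 0.11, adjusted p = 3.92e-06, limma). Zfp963 was at 1.414, 1.548 and 1.341 FPKM with IL-4 and 2.934, 2.683, 2.973 and 2.758 FPKM in the controls. Of its 50-base words, 39.4% occur in other genes. Summed over the 190 genes, the level was 1369.3 ± 24.3 FPKM with IL-4 for 24 h (SD, n = 3) and 1597.5 ± 52.2 FPKM in the controls (n = 4).

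Neutrophil markers had lower means with IL-4 at the same time. S100a8 was at 96 ± 16 FPKM with IL-4 for 24 h and 222.2 ± 32.6 FPKM in the controls, S100a9 at 128.1 ± 29.6 and 233.3 ± 44.1 FPKM, and Elane and Mpo at 2.76 ± 0.31 and 4.29 ± 0.37 FPKM against 4.44 ± 1.52 and 5.37 ± 1.76 FPKM. All 4 detected neutrophil markers had a lower mean with IL-4 at 24 h, but the Mpo samples overlapped (3.908 to 4.642 against 3.846 to 7.708 FPKM). At 6 h the mean of Mpo was higher with IL-4 (8.637 against 5.849 FPKM). The part of these markers in the Zfp decrease was not tested. Of 14 corepressors and chromatin partners of KRAB proteins, 1 was higher and 3 lower at 6 h (22.0% and 19.2% of all loci). At 24 h, 2 were higher and 3 lower (23.4% and 31.6% of all loci). At 6 h the lower genes were Dnmt1 (-0.7), a DNA methyltransferase, Uhrf1 (-0.68), its cofactor, and Morc3 (-0.68). At 24 h they were Morc3 (-0.68), Chd3 (-0.56) and Hdac1 (-0.17), while Chd4 (0.35) and Hdac2 (0.34) were higher. Trim28 passed at no time point.

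No Zfp gene passed the test for IL-4 in Stat6-/- BMDMs. The count was 0 of 190 at each time point, when 0.0% of all loci passed. It was 0 over all times together, when 0.00897% of all loci passed (limma). At an unadjusted p below 0.05, 4 Zfp genes passed at 1 h (2.11%, against 0.458% of all loci). At 3 h, 5 did (2.63% against 1.18%). There were 0 at 6 h (0.79% of all loci), 0 at 24 h (0.332%) and 2 over all times (1.05% against 1.23%). An analysis of variance with Tukey's adjustment called 0 at each time. Zfp653 had the smallest p over all times (a change of 0.14 ± 0.06, adjusted p = 1). Changes at 1 h ran from -0.28 to 0.33, with a median SE of 0.13. These 2 samples often lay apart from each other: without IL-4 at 24 h, Zfp263 was at 22.96 and 41.25 FPKM and Zfp36l1 at 41.52 and 94.2 FPKM.

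The difference between the genotypes' responses was tested directly. It passed, by at least 2-fold, for 3 Zfp genes at 1 h (1.25% of all loci), 6 at 3 h (3.48%), 4 at 6 h (4.41%) and 3 at 24 h (6.85%). They comprised the 9 genes with 2-fold changes in WT, and none had the opposite sign. Without Stat6-/- replicate 1 the count at 1 h was 5. At an adjusted p below 0.05 regardless of size, 48 Zfp genes had a more negative response in WT than in Stat6-/- at 24 h, or 25.3% of them, against 14.8% of all loci.

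The genotypes were also compared without IL-4. Over the controls of all times, 20 Zfp genes differed at an adjusted p below 0.05 (21.4% of all loci did), 10 in each direction, and 0 by 2-fold (0.287% of all loci). These controls repeat the same replicate numbers over time and need not be independent animals. Same-numbered Stat6-/- samples deviated together (mean r of 0.714), so the p-values may be too small. At an unadjusted p below 0.05 there were 45 Zfp genes, or 23.7% of them, against 32.3% of all loci. The largest differences were in Zfp36l1 (0.41 ± 0.11, adjusted p = 0.00355, limma), Zfp90 (0.27 ± 0.05, adjusted p = 6.7e-05) and Zfp367 (-0.24 ± 0.06, adjusted p = 0.00374), as Stat6-/- minus WT. For Zfp36l1 the value was 0.17 without Stat6-/- replicate 2 and did not pass. Neutrophil markers were higher in the Stat6-/- controls. S100a8 was at 230.2 to 477.7 FPKM there and at 110.8 to 251.1 FPKM in WT controls, and S100a9 at 252 to 436.7 against 138.4 to 272.1 FPKM. Mpo was at 7.204 to 11.26 against 3.801 to 8.899 FPKM, and Elane at 4.757 to 8.465 against 3.009 to 7.852 FPKM. Their part in the differences between genotypes was not tested. Of the exonic bases of Zfp90, 79.5% overlap a gene on the opposite strand.

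The Zfp genes of WT controls were then compared over time in culture at an adjusted p below 0.05. Against the shared 0 h samples, 8 were lower at 1 h (1.75% of all loci were), 0 differed at 3 h (0.144% of all loci), 1 at 6 h (0.135%) and 10 at 24 h (17.2%). At an unadjusted p below 0.05 there were 61 at 1 h, or 32.1% of the Zfp genes against 11.7% of all loci. At 3 h there were 15 (7.89% against 6.48%), and Tukey's adjustment called 1. None reached 2-fold at 24 h, when 1.13% of all loci did. After Zfp36, the largest changes at 24 h were those of Zfp963 (0.46 ± 0.1, adjusted p = 0.00141, limma) and Zfp874b (0.44 ± 0.11, adjusted p = 0.00511), both KRAB genes. Zfp963 did not pass without WT replicate 1 (0.34), and Zfp874b did not pass without WT replicate 1 (0.37) or 4 (0.43).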

How the data were processed

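Total RNA of 53 BMDM samples was poly-A selected and sequenced with a kit that does not mark strand. Per the submitters' processing notes, the authors used TopHat2 2.0.7 and Cufflinks 2.0.2 with build mm10. The deposited values are FPKM per locus. The gene annotation is not given in the sources used here, and the tables hold no counts, so absolute depth is unknown. Relative depth was taken from 5454 low loci.

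Loci reaching 1 FPKM in any sample (11146) entered the test on log2(FPKM + 1) in limma 3.58.1 (R 4.3.3) with a mean per group, all 53 samples, 35 residual degrees of freedom, an intensity trend and two-sided tests. The log2 scale with a pseudocount of 1 understates changes of low genes. P-values were adjusted by Benjamini-Hochberg over loci within each contrast. Groups came from the sample labels. WT replicates were individual animals per the study's legends, and the replicate numbers are nowhere tied to an animal. P-values measure the spread between these samples, and no pair of samples was identical. The fit was tested on simulated data.

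Genes, protein patterns and shared 50-base words were read from GENCODE M21 (GRCm38), where 186 members matched by symbol and 4 by an older symbol. Promoters came from RefSeq. Members, gene lists and rules were chosen with earlier results of these data known. Named genes were the Zfp36 family, 2-fold calls, up to 3 further genes per direction and time without overlap, the 5 most abundant, and the leading differences between genotypes and over control time. The run on chromosome 13 was added after its values were seen. Loci with related-sequence symbols were left out of the runs and of the counts outside them, and are not reported singly here. Alternatives were another pseudocount, other filters, 2 normalizations, a replicate block, Tukey's adjustment, a lower level limit and leaving out replicates.

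Same-numbered WT samples of different groups correlated in their deviations with a mean r of 0.223 (111 of 136 pairs over 0.1), and Stat6-/- samples with 0.714 (72 of 72 pairs). With 2 samples per Stat6-/- group the deviations mirror each other, so the pairs of replicate 2 repeat those of replicate 1. The mean r of Stat6-/- is therefore not comparable with that of WT.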

Additional observations from a re-analysis of the deposited data

Results flagged for a closer look

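In 60 checks of groups of 4 samples for the named genes, 2 samples stood far from the other 3, where chance at 5.0% gives 3.0. Zfp609 was at 1.851 FPKM in WT control replicate 3 of 24 h, and the others lay between 2.083 and 2.111 FPKM. Zfp963 was at 1.213 FPKM in WT control replicate 1 of 0 h, and the others lay between 1.959 and 2.089 FPKM.

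The response to IL-4 differed between WT and Stat6-/- by a test of the difference itself (limma, adjusted p below 0.05) in the named Zfp genes given here, as WT minus Stat6-/- on the log2 scale. Differences of at least 2-fold come first. At 1 h they were -1.91 for Zfp36l2, 1.45 for Zfp654 and 1.51 for Zfp874a. At 3 h they were 1.4 for Zfp36l1, -1.0 for Zfp36l2, 2.11 for Zfp609, 1.2 for Zfp703, -1.18 for Zfp821 and 1.11 for Zfp874a. At 6 h they were 1.43 for Zfp36l1, 1.4 for Zfp609, 1.23 for Zfp703 and -1.02 for Zfp821. At 24 h they were -1.07 for Zfp263, -1.14 for Zfp467 and -1.67 for Zfp821.

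Smaller differences also passed. At 1 h these were 0.48 for Zfp609 and 0.95 for Zfp703, and at 3 h -0.78 for Zfp275, -0.74 for Zfp395 and 0.74 for Zfp654. At 6 h these were -0.603 for Zfp275, 0.58 for Zfp36, -0.597 for Zfp36l2, -0.76 for Zfp395 and 0.59 for Zfp874a. At 24 h the differences were positive for Zfp101 (0.72), Zfp142 (0.55), Zfp609 (0.74) and Zfp703 (0.42) and negative for Zfp36l1 (-0.94), Zfp36l2 (-0.44), Zfp395 (-0.696), Zfp90 (-0.54) and Zfp963 (-0.58).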

How the results depend on the processing

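Of the counts of Zfp genes recomputed under other settings, 315 stayed within 1.5 times the reported count and 16 did not. Of the changes of single genes, 440 kept their direction and their side of the threshold, 14 no longer passed and 3 changed sign. The 3 were all Zfp36 at 24 h of IL-4 in WT, which was 0.055 with median-ratio scaling, 0.017 without WT replicate 1 and 0.045 without WT replicate 3 (-0.086 to 0.045 over the WT replicates left out). With the analysis of variance and Tukey's adjustment, 4 Zfp genes were lower at 1 h, 18 higher and 8 lower at 3 h, 14 lower at 6 h, and 7 higher and 56 lower at 24 h. Quantile normalization gave 12 lower at 1 h and 60 lower at 24 h, and a pseudocount of 0.1 gave 5 genes changed by 2-fold at 3 h. When 1 replicate was left out, the higher Zfp genes in WT numbered 18 to 27 at 1 h, 21 to 27 at 3 h, 21 to 24 at 6 h and 12 to 17 at 24 h. The lower genes then numbered 2 to 5 at 1 h, 12 to 13 at 3 h, 20 to 26 at 6 h and 64 to 79 at 24 h. The 2-fold calls numbered 4 to 5, 3 to 4, 3 to 4 and 2 to 3 in time order, and the differences between genotypes 3 to 5 at 1 h, 4 to 6 at 3 h, 3 to 4 at 6 h and 3 to 3 at 24 h. The cause of these shifts was not tested. A wider KRAB pattern, added after the data were seen, gave 44 lower KRAB genes at 24 h in place of 41. The count of higher genes in the run on chromosome 13 at 1 h was 6 to 8 of 9 under all the other fits, which were applied to it after the data were seen.

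With the replicate number within genotype as a replicate block, 44 Zfp genes were lower at 6 h in place of 29, 37 were higher and 10 lower at 1 h, 41 and 25 at 3 h, and 19 and 103 at 24 h. The 2-fold calls in WT kept their number, the differences between genotypes at 1 h numbered 4, and 0 Zfp genes passed in Stat6-/-. Against 0 h, 30, 2, 5 and 31 Zfp genes then differed in the WT controls of 1, 3, 6 and 24 h, in place of 8, 0, 1 and 10. Not every pair of same-numbered WT samples deviated together (lowest r = -0.145), so a shared animal was not established, and the genotypes have no common block. Absolute depth is unknown, and low genes carry the larger error.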

Other observations

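Other families of regulators with the same minimum level were counted at 24 h in WT, when 23.4% of all loci were higher and 31.6% lower. Of 28 Zbtb genes, which carry C2H2 fingers behind a BTB domain, 3 were higher (10.7%) and 10 lower (35.7%), with a median of -0.09. Of 33 Trim genes, which encode ubiquitin ligases, 1 was higher (3.03%) and 22 lower (66.7%), with a median of -0.37. Of 9 Klf genes, which are C2H2 factors with 3 fingers, 4 were higher and 4 lower. Differences between the families were not tested.

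In the RefSeq promoter windows, the palindrome of TTC and GAA with 4 bases between them, which STAT6 is known to prefer, was found in 5.7% of 192 Zfp windows and in 7.0% of all 32851. With 3 bases between TTC and GAA, the spacing of most other STAT factors, it was found in 10.9% and 8.3%. The stricter form of the former, TTCC and GGAA with 4 bases between them, was found in 2.1% and 0.8%.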
